A study of Mus musculus with 3 samples.

Results

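The genes described here encode axon guidance ligands and receptors: the Slit and Robo, netrin and Unc5, semaphorin, neuropilin and plexin, and ephrin and Eph families. All genes whose symbols belong to these families were taken, whatever their signals, and they comprised 67 of 18193 named genes and 148 of 45037 probe sets. Of the 67 genes, 35 encode ligands and 32 encode receptors. Ephb2 had no probe set with a single gene symbol and was not analysed here. Signals were measured on 3 arrays of cap mesenchyme, the progenitor cells that surround the ureteric tips of the fetal kidney and give rise to nephrons. The cells came from E15.5 embryos (Theiler stage 23) of strain CD-1 that carried the transgene Tg(Six2-EGFP/cre)1Amc, and were sorted by fluorescence after dissociation of the kidneys with trypsin. Each array held RNA of 1 pool of roughly 5 to 10 kidneys, amplified in 2 rounds, and the embryos' sex was not known. The 3 pools formed a single group with no control, so the tests set each gene against array background, and values were also set side by side over the pools. All cells carried the transgene, and the sort took whatever cells held EGFP, which need not be progenitors alone.

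Guidance cues were first described as signals that attract or repel growing axons, and the same proteins position cells, shape epithelia and pattern vessels in many organs. Slits are secreted and act through Robo receptors, netrins through Dcc, Neo1 and the Unc5 receptors, and secreted class 3 semaphorins through neuropilins paired with plexins. Ephrins are bound to the membrane and signal on contact with Eph receptor tyrosine kinases, with signals passing into both cells. In the developing mouse kidney, Slit2 acting on Robo2 is known to confine expression of Gdnf, which attracts the ureteric bud, so that a single bud forms.

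The sorted cells carried the markers of their label. All 9 cap mesenchyme markers were above background, among them Six2 at a mean signal of 7905 ± 1904 and Gdnf at 8235 ± 982 (SD, n = 3). Markers of other cells that the sort could hold were also read: 6 of 7 stromal genes passed (summed signal 22176 to 29439 over the pools), 6 of 7 early nephron genes (25872 to 29288), 3 of 8 genes of nerve and neural crest (4811 to 6006), 3 of 8 ureteric bud genes (1197 to 1992) and 1 of 10 endothelial genes (1451 to 1627). Of the podocyte genes 1 of 3 passed (825 to 1168), of the macrophage genes 0 of 6 (426 to 777) and of the erythroid genes 0 of 4 (150 to 247). Beside these counts, 54.4% of all named genes were above background. In a sorted population, fewer cells of a type and less RNA per cell cannot be told apart. The background level, the 95th percentile of 150 probe sets for sensory receptor, hair and mucosal defence genes, was 197 for pool 1, 186 for pool 2 and 201 for pool 3 on the signal scale. Labels do not say whether the pools came from separate litters, so the spread between these 3 pools may be technical. The p-values rest on that spread, which limma draws towards the spread of other probe sets of like intensity. The signals do not rank one gene against another, because probe sets differ in affinity, and a gene under the background level may still be transcribed.

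Of the 67 genes, 40 were above background, or 59.7%, against 54.4% of all named genes in the same test (limma, Benjamini-Hochberg adjusted p under 0.05 over all probe sets). At the level of probe sets, 60 of 148 passed, against 41.5% of all probe sets and 47.2% of those with a single gene symbol. Both shares were near those of the arrays as a whole. Ligand genes passed in 23 of 35 cases and receptor genes in 17 of 32. All 8 ephrin genes, all 6 class 4 semaphorins and all 3 plexin B genes passed, and none of 4 netrins did. The median over the 67 genes was 1.12 log2 units above the background level, and over all named genes it was 1.20 log2 units. A gene counted as above background if any of its probe sets was, which favours genes with many. Among the 23 members with 1 probe set 10 passed (43.5%, against 37.1% of all named genes with 1), and among the 22 members with 2 probe sets 15 did (68.2%, against 64.3%). With 3 probe sets 7 of 10 members passed (against 76.9%), and with more than 3, 8 of 12 (against 84.5%). In 21 of the 44 members with several probe sets, some passed and others did not. Below, each gene is given by the probe set with its highest mean log2 signal.

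**Figure D1:**
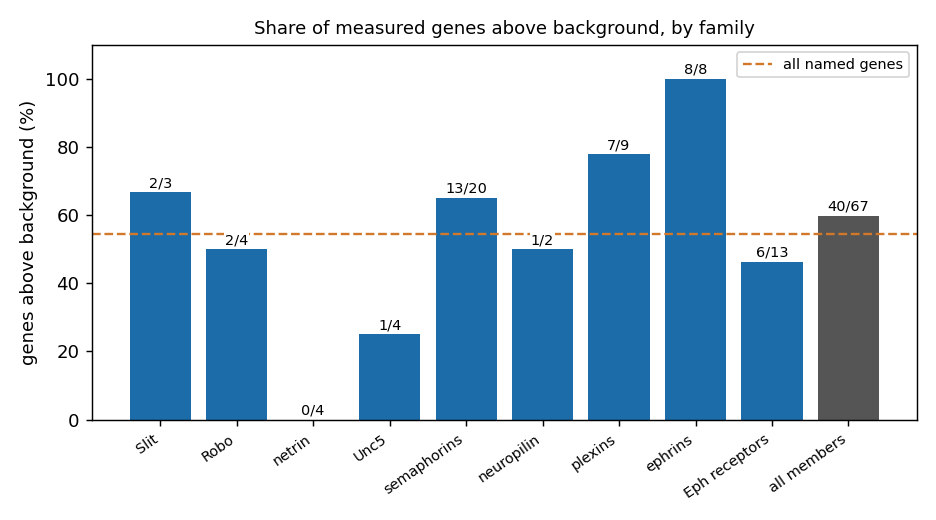
Share of measured genes above background in each family (bars, percent) and in all named genes (dashed line, 54.4%). Numbers over the bars are genes above background over genes measured. Ephrins stood at 8 of 8 and netrins at 0 of 4, and the 67 members together at 40.

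Sequence upstream of the start sites was compared between members above and not above background. RefSeq start sites (GRCm38.p6) were matched for 58 of the 67 genes, with 74 upstream windows of 250 bases. Member windows were rich in G and C, with a median of 64.4% over the 49 windows of genes above background and 63.6% over the 25 windows of genes not above it, against 52.4% over all 32841 windows. The 49 windows belong to 35 genes and the 25 to 23, so genes with several start sites count more than once. All windows together belong to 27018 genes and were not limited to genes on the arrays. Short motifs were counted on both strands, with overlapping matches allowed. The GC box GGGCGG was in 67.3% of windows of members above background and 80% of those of members not above it, and in 32.7% of all windows. The CCAAT box letters CCAAT were in 26.5%, 24% and 33.9% of these windows. TATAAA was in 4.08% and 0% of the member windows and in 12.4% of all. No test was made of these shares. For the Slit, Unc5 and neuropilin families, the windows of a strongly detected gene and of a relative that did not pass are printed below with the families. These pairs were chosen after their values were seen.

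Slit genes, which encode large secreted ligands of Robo receptors, were above background in 2 of 3 cases. Slit2 had signals of 29074, 31433 and 25239.9 in pools 1, 2 and 3. All 3 pools lay far over the background level, by 7.08 ± 0.15 log2 units (SE), or 135-fold on the scale of log2(signal + 16) used for all folds here (adjusted p = 1.6e-08). This was the largest margin among the 67 genes, as a position relative to background and not as a rank of transcript levels. Its other probe sets also passed, with mean signals of 685 and 545. Slit1 read 2104, 2014 and 2420 in the 3 pools (adjusted p = 9.9e-08), with its second probe set above background as well. Slit3 was under the background level in every pool, with 143, 33.0 and 83.7 on its single probe set.

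The windows upstream of Slit2 and Slit3, with the GC box, the CCAAT box and the TATA letters named above in capitals on either strand, were 69.6% and 78.8% G and C. Slit2 held 3 GC boxes and 1 match to the TATA letters, and Slit3 held 6 GC boxes.
Slit2, chr5:47982905-47983154, forward strand: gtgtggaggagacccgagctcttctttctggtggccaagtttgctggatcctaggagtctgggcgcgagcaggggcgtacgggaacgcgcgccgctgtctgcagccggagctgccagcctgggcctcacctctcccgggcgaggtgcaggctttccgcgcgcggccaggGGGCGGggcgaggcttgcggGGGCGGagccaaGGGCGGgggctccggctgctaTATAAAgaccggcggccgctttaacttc
Slit3, chr11:35121206-35121455, forward strand: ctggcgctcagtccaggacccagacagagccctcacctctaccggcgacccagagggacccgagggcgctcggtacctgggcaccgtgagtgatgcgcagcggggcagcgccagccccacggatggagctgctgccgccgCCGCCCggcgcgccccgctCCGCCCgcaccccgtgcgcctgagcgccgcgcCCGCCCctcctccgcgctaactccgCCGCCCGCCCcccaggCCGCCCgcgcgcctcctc

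Robo receptors were above background for Robo1 and Robo2 and not for Robo3 and Robo4. Robo1 had signals of 2303, 1902 and 1828 in pools 1, 2 and 3, which is 3.26 ± 0.13 log2 units over background (adjusted p = 1.9e-07). Of its 3 probe sets 2 passed. Robo2, the receptor through which Slit2 confines Gdnf, read 1023, 700 and 522 (adjusted p = 0.00013). Pool 1 was highest and pool 3 lowest, a 1.93-fold range, and all 3 pools were over the background level. Robo3, which in mammals does not bind Slits with high affinity, read 85.9, 152 and 86.9, and Robo4, known from endothelial cells, read 143, 152 and 138. Neither passed, and both lay under the background level in every pool. Robo1 and Robo2 are direct neighbours on chromosome 16 among protein-coding genes, and Robo3 and Robo4 are direct neighbours on chromosome 9, so that each neighbouring pair lay on one side of the threshold.

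Among the intracellular partners of Robo receptors, a list of adaptors and cytoskeletal regulators, 13 of 13 genes were above background. The share of all named genes was 54.4%, and most of the 13 have several probe sets, which favours a call. Srgap1, Srgap2 and Srgap3, which encode the GTPase-activating proteins that bind Robo receptors, had mean signals of 547 ± 35.5, 2112 ± 470.4 and 474 ± 191 (SD, n = 3). The actin regulator gene Enah was at 36149 ± 9883 and the kinase gene Abl1 at 9272 ± 1587. Srgap1 and Srgap3 did not pass when background was set at its 99th percentile.

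Netrins, the secreted ligands related to laminins, gave the opposite picture: none of the 4 measured genes and none of their 6 probe sets was above background in limma's test, and the count at an unadjusted p under 0.05 was 0. Ntn1, the best known member, read 71.6, 121 and 59.1 in pools 1, 2 and 3. Its second probe set read 15.07, 252 and 35.05, over the background level in pool 2 alone. Ntn4, a component of basement membranes, read 202, 136 and 144, so that pool 1 alone was over the background level. Ntn3 and Ntn5 had mean signals of 53.9 ± 34.7 and 30.8 ± 4.62 (SD, n = 3). None of the 4 passed under any of the 12 alternative settings.

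Unc5 receptors, which bind netrins and FLRT proteins, were represented by Unc5c alone. Unc5c had signals of 17842, 18332 and 14953 in the 3 pools, 6.34 ± 0.14 log2 units or 80.8-fold over background (adjusted p = 1.6e-08), and its other probe set passed at a mean of 3072 ± 402. The pools differed by 1.23-fold at most. Unc5b read 229, 65.1 and 180.0, with pool 1 over the background level and the others under it. Unc5a (mean 58.0 ± 31.9) and Unc5d (36.8 ± 50.4) were under it in every pool.

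The windows upstream of Unc5c and Unc5b were 71.2% and 66.8% G and C. Unc5c held none of the 3 motifs, which says only that these letters are not in this window, and Unc5b held 2 GC boxes.
Unc5c, chr3:141465314-141465563, forward strand: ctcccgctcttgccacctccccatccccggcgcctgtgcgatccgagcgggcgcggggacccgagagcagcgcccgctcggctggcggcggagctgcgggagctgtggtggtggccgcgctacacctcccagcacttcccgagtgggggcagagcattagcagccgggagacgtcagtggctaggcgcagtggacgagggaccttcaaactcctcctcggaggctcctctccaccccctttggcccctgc
Unc5b, chr10:60831582-60831831, reverse strand: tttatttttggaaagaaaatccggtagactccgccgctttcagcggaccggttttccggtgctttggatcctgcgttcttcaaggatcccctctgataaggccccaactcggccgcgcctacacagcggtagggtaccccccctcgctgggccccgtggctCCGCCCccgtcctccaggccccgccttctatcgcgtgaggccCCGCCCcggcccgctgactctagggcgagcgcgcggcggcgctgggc

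Further genes of the netrin system came from a list of 11, of which 2 passed, against 54.4% of all named genes. Neo1, which encodes neogenin, a receptor for netrins and for repulsive guidance molecules, had signals of 23746, 31271 and 26337 (adjusted p = 1.6e-08), and 4 of its 5 probe sets passed. Rgmb, which encodes a repulsive guidance molecule that binds neogenin, read 3697, 1729.5 and 895, a 2.03 log2 range between pools 1 and 3 (adjusted p = 7.5e-05). Dcc, the classical attractive netrin receptor, read 230.5, 242 and 331 and did not pass (adjusted p = 0.18), although every pool was over the background level. With background set at its 90th percentile it passed (adjusted p = 0.033, the lowest of 0.033 to 1.0 over its alternatives). Rgma, Draxin, Dscam, Dscaml1, Ntng1, Ntng2, Lrrc4 and Lrrc4c did not pass. With background at its 90th percentile Ntng1 (adjusted p = 0.036, the lowest of 0.036 to 1.0 over the alternatives) and Lrrc4c (adjusted p = 0.027) did, and Lrrc4c also passed without pool 3 (adjusted p = 0.0068, the lowest of 0.0068 to 1.0). Of the FLRT genes, whose products bind Unc5 receptors, all 3 were above background: Flrt1 at 630.5 ± 252, Flrt2 at 3529 ± 347 and Flrt3 at 1358 ± 232 (SD, n = 3). Flrt1 did not pass with background at its 99th percentile.

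**Figure D2:**
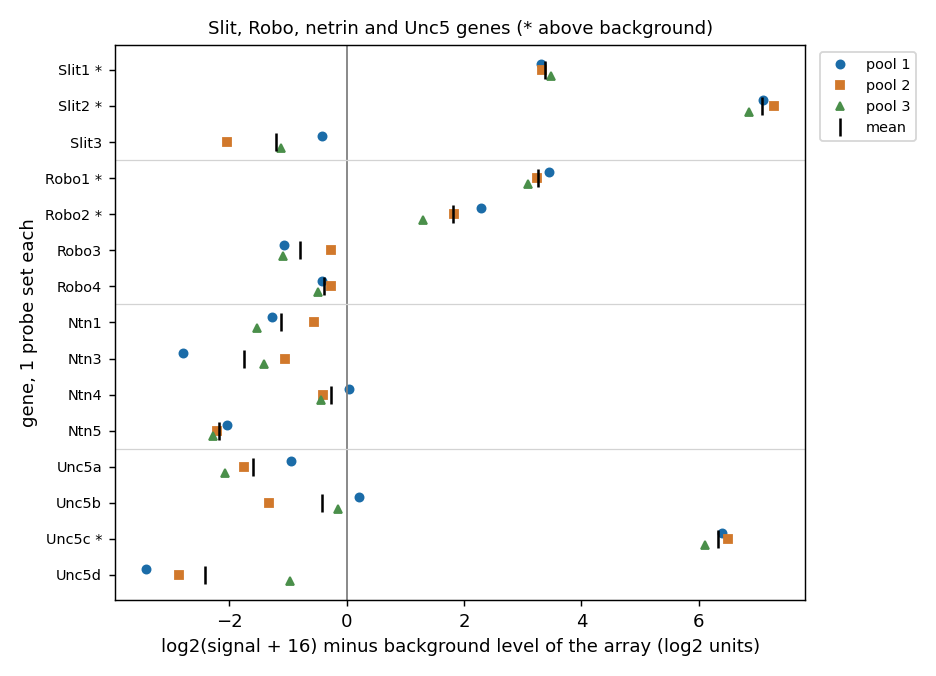
Slit, Robo, netrin and Unc5 genes in the 3 pools, as log2(signal + 16) minus the background level of the same array (0, vertical line), with 1 probe set per gene; points are pools, bars are means, and asterisks mark genes above background. Slit2 and Unc5c lay more than 6 log2 units over the line in every pool, and all 4 netrin means were to its left.

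Class 3 semaphorins, the secreted ligands of neuropilin and plexin complexes, were above background in 5 of 7 cases. Sema3c read 1976, 2283 and 3061 in pools 1, 2 and 3 (3.52 ± 0.15 log2 units over background, adjusted p = 2.4e-07). Sema3f read 1739, 2599 and 2299, and Sema3d 2046, 1743 and 1617. All probe sets of these 3 genes passed. Sema3b was at 846 ± 116 (SD, n = 3) on 1 passing probe set of 3. Sema3a, a repulsive cue known to limit ureteric bud branching in mouse kidney explants, read 498, 1109 and 621 on 1 passing probe set of 3. Its highest pool was pool 2, and all pools were over the background level, but with background at its 99th percentile it did not pass (adjusted p = 0.061, the highest of 1.3e-05 to 0.061 over the alternatives). Sema3e, which acts on Plxnd1 without a neuropilin, was under the background level in all pools (72.1, 100.4 and 107) on the highest of 4 probe sets. Sema3g read 166, 204 and 179, near the level but not over it on average.

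Class 4 semaphorins, membrane-bound ligands of B plexins, were above background in 6 of 6 cases. Sema4g had signals of 4419, 3758 and 5339, and Sema4c, a ligand of Plxnb2, 2936, 1924 and 2905. Their margins over background were 4.41 ± 0.13 and 3.60 ± 0.15 log2 units (SE). Sema4b (655 ± 75.6) passed on 1 probe set of 2, and Sema4d (751 ± 224), the ligand of Plxnb1, on 1 of 3 (SD, n = 3). Their other probe sets were under the level in every pool, with means between 20.2 and 35.3. Sema4a was close to the level at 342 ± 48.6 (adjusted p = 0.016) on 1 passing probe set of 2. It did not pass without pool 2 (adjusted p = 0.059) or without pool 3 (adjusted p = 0.067), and its adjusted p ran between 0.0039 and 1.0 over the alternatives. Sema4f passed only on a probe set with signals of 289, 349 and 438 (adjusted p = 0.014), while the probe set with the higher mean log2 signal, at 152, 559 and 617, did not (adjusted p = 0.067). Its call was also lost without pool 2 (adjusted p = 0.088) and without pool 3 (adjusted p = 0.073), within a range of 6.3e-05 to 1.0 over the alternatives.

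Of the remaining semaphorins 2 of 7 passed. Sema6d, a transmembrane ligand of A plexins, read 1391, 1052 and 1255 on 1 passing probe set of 4. Sema5a, which carries thrombospondin repeats, read 550.1, 401 and 698 on 1 of 4, and did not pass with background at its 99th percentile (adjusted p = 0.39, the highest of 6.6e-05 to 0.39 over the alternatives). Sema6a read 296, 277 and 302, over the level in every pool, and missed the threshold at an adjusted p of 0.066. It passed under 4 of 12 alternatives, with adjusted p-values between 0.012 and 1.0 over the 11 that give one. Sema6c read 486, 244 and 146, so that pool 3 was under the level, and did not pass (adjusted p = 0.34). Sema5b, Sema6b and the membrane-anchored Sema7a had mean signals between 31.1 and 149.

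Neuropilins, the co-receptors that bind class 3 semaphorins and forms of the vascular growth factor Vegfa, split between their 2 genes. Nrp1 had signals of 17030, 21571 and 15288 in pools 1, 2 and 3, which is 6.40 ± 0.16 log2 units or 84.6-fold over background (adjusted p = 1.7e-08). All 4 of its probe sets passed, with means between 1336 and 17963, and on all 4 pool 3 was the lowest; for 2 of the 4 the pools differed by 2.22-fold and 2.44-fold. Nrp2 read 120, 198 and 228 on the highest of 4 probe sets, and none of the 4 passed (adjusted p = 1.0). Pools 2 and 3 were over the background level for Nrp2 and pool 1 was under it. Nrp1 is also expressed in vessels. Of the 10 endothelial markers Egfl7 passed (591 ± 45.9; not with background at its 99th percentile, adjusted p = 0.13). Esam, with 424, 249 and 267 in the 3 pools, was over the level in every pool without passing (adjusted p = 0.064, and 0.016 with background at its 90th percentile, the lowest of 0.016 to 1.0 over the alternatives). Kdr, with 197, 207 and 214, was over the level in 2 pools. Pecam1 (47.7 ± 20.3), Cdh5 (83.9 ± 28.3), Tek (32.4 ± 26.3), Tie1 (3.82 ± 1.14), Flt1 (95.5 ± 40.5), Cldn5 (105 ± 50.4) and Emcn (89.7 ± 6.95) were under it in every pool (SD, n = 3). The part of endothelial cells in the Nrp1 signal was not tested.

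The windows upstream of Nrp1 and Nrp2 were 64.4% and 72.4% G and C, with 1 GC box at Nrp1 and 5 at Nrp2.
Nrp1, chr8:128358823-128359072, forward strand: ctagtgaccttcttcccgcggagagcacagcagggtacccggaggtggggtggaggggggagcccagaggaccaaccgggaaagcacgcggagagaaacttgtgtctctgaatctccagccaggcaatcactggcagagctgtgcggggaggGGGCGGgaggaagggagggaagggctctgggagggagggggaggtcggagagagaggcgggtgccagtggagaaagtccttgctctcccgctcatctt
Nrp2, chr1:62703067-62703316, forward strand: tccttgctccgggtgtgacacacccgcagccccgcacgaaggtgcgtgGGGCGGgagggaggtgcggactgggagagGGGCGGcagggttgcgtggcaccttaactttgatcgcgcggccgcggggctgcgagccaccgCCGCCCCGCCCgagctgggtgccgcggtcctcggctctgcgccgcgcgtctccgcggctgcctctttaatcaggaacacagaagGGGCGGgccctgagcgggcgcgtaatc

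Plexins, the signalling receptors of semaphorins, were above background in 7 of 9 cases. Plxnb1 read 2412, 3527 and 4736 in pools 1, 2 and 3, with both probe sets passing and pool 3 at 1.96 times pool 1. Plxnb2 read 2886, 2157 and 3027, and Plxna3, one of the plexins that pair with neuropilins, 2368, 2334 and 2535. Their margins over background were 4.03 ± 0.19, 3.67 ± 0.13 and 3.53 ± 0.12 log2 units (SE). Plxna1 was at 1135 ± 289 (SD, n = 3, adjusted p = 4.2e-06). Among the A plexins, Plxna1 and Plxna3 each passed on 1 probe set of 2, and Plxna2 on 1 of 4. The second probe sets of Plxna1 and Plxna3 were under the level in every pool, with means of 157 and 130. Plxnb3 (432 ± 32.3) passed on a probe set that can match several transcripts and did not pass without it. Plxnc1, the receptor of Sema7a, read 328, 367 and 717 on 1 passing probe set of 6. Plxna2 read 343, 382 and 242 and passed narrowly (adjusted p = 0.045); without pool 2 it did not (adjusted p = 0.23, within 0.0093 to 1.0 over the alternatives). Plxna4 was under the level in all pools (130, 116 and 95.5). Plxnd1, known from vessels, read 242, 226 and 337 and did not pass (adjusted p = 0.18), with all pools over the level; with background at its 90th percentile it passed (adjusted p = 0.035, the lowest of 0.035 to 1.0 over the alternatives).

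Of 19 genes that transmit plexin signals, 14 were above background, against 54.4% of all named genes. Dpysl2, which encodes a collapsin response mediator protein, was at 42491 ± 13177, the exchange factor gene Arhgef12 at 10427 ± 1007 and the exchange factor gene Farp1 at 7666 ± 1379 (SD, n = 3). Arhgef12 binds B plexins, and Gipc1, which binds the neuropilin tail, was at 505 ± 94.5 and did not pass with background at its 99th percentile. Crmp1, Dpysl5, Mical2, Rnd1 and Fes did not pass, although Fes did without pool 1 (adjusted p = 0.032, the lowest of 0.032 to 1.0 over the alternatives). Met, a receptor tyrosine kinase that associates with B plexins, read 10216, 9174 and 7609.6.

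**Figure D3:**
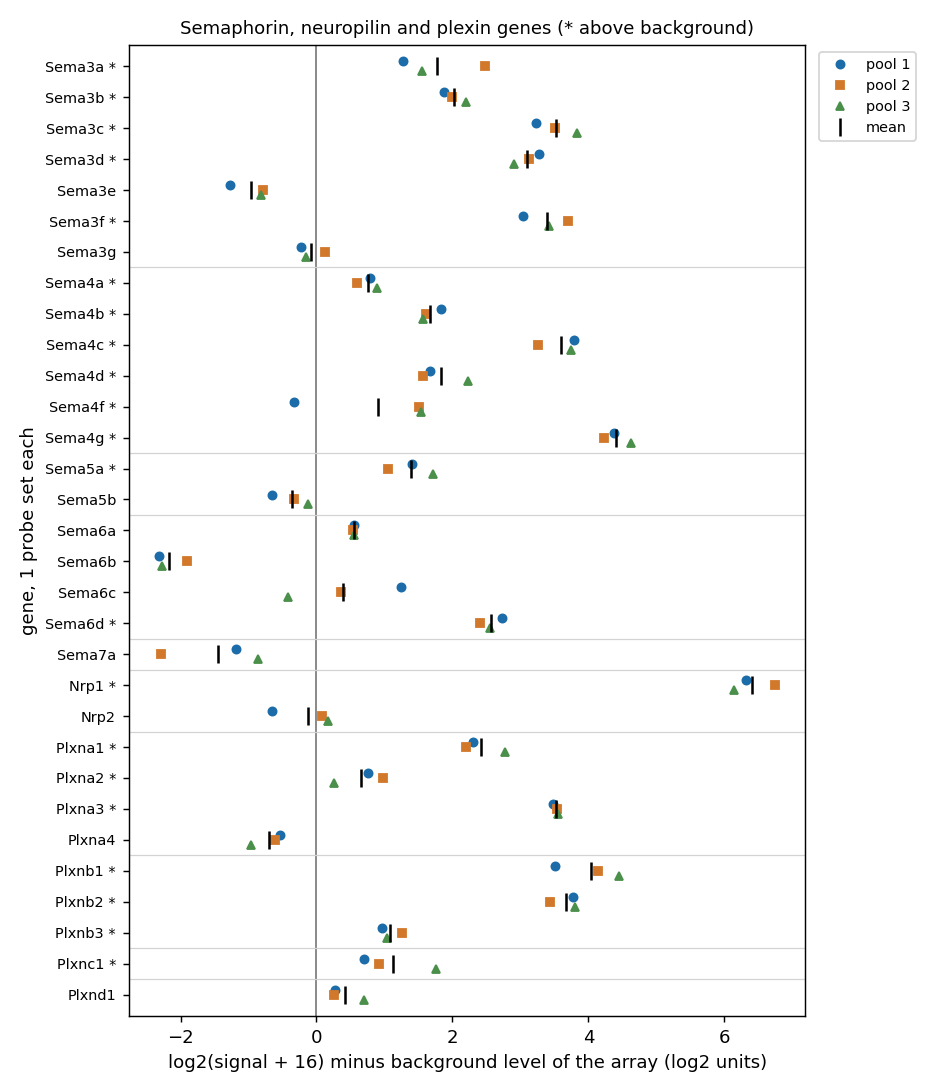
Semaphorin, neuropilin and plexin genes in the 3 pools, on the same scale as the plot of Slit and netrin genes: log2(signal + 16) minus the background level of the array, points for pools, bars for means, asterisks for genes above background. All 6 class 4 semaphorins carry an asterisk, Nrp1 lay 6.40 log2 units over the line on average, and Nrp2 lay at it.

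Ephrins were above background in 8 of 8 cases. Among the A ephrins, which are anchored by a lipid, Efna5 read 2082, 2395 and 2047 in pools 1, 2 and 3, and Efna2 read 1576, 2288 and 2204. Efna1 was at 883 ± 217 (SD, n = 3). Efna1, Efna2, Efna3 and Efna5 each passed on 1 probe set of 2, and the second probe set of Efna5 read 204, 33.8 and 76.7. Efna3 (366 ± 66.5, adjusted p = 0.0096) and Efna4 (419 ± 48.7, adjusted p = 0.0023) were nearer to the background level and fell under it when it was set at its 99th percentile. Efna1, Efna3 and Efna4 follow each other on chromosome 3 with no protein-coding gene between them. The B ephrins span the membrane: Efnb1 read 3555, 3236 and 3219.6 with all 3 probe sets passing, Efnb2 read 2148, 2243 and 1535 with 2 of 4 passing, and Efnb3 read 881, 701 and 744 on its single probe set. For Efnb1 the pools differed by 1.10-fold at most (adjusted p = 3.3e-08).

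Eph receptors were above background in 6 of 13 cases, with 3 of 9 EphA and 3 of 4 EphB genes. Epha7 read 3489, 1842 and 1659, 3.40 ± 0.22 log2 units over background (adjusted p = 2.4e-06), on 2 passing probe sets of 4. Epha4, which binds ephrins of both classes, read 1448, 688 and 1139, with 4 of 5 probe sets passing. Epha2 read 603, 599 and 605, the narrowest range between pools of the 40 genes above background. Epha1, Epha3, Epha5, Epha6, Epha8 and Epha10 were under the background level in every pool, with means between 14.7 and 121. Epha10, whose product lacks kinase activity, was the farthest under it (14.5, 17.9 and 11.7).

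The EphB genes each had 1 probe set. Ephb1 read 617, 485 and 596, Ephb3 458, 568 and 777, and Ephb4, the receptor of Efnb2 in vessels, 602, 378 and 614. Their adjusted p-values were 0.00015, 0.00025 and 0.00056, and with background at its 99th percentile none of the 3 passed, and neither did Epha2. Ephb6, also without kinase activity, read 299, 190.3 and 266, over the level in every pool but without passing (adjusted p = 0.30). Of 13 genes that transmit Eph or ephrin signals 10 passed, against 54.4% of all named genes. They included Sdcbp, which encodes the ephrin-B binding protein syntenin, at 19909.8 ± 3458, Rasa1 at 6135 ± 1195 and the chimaerin genes Chn1 at 791 ± 209.8 and Chn2 at 1126 ± 208 (SD, n = 3). Ngef, Vav3 and Grip2 did not pass. Adam10, the protease that sheds ephrins, read 26126, 33933 and 23837.

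**Figure D4:**
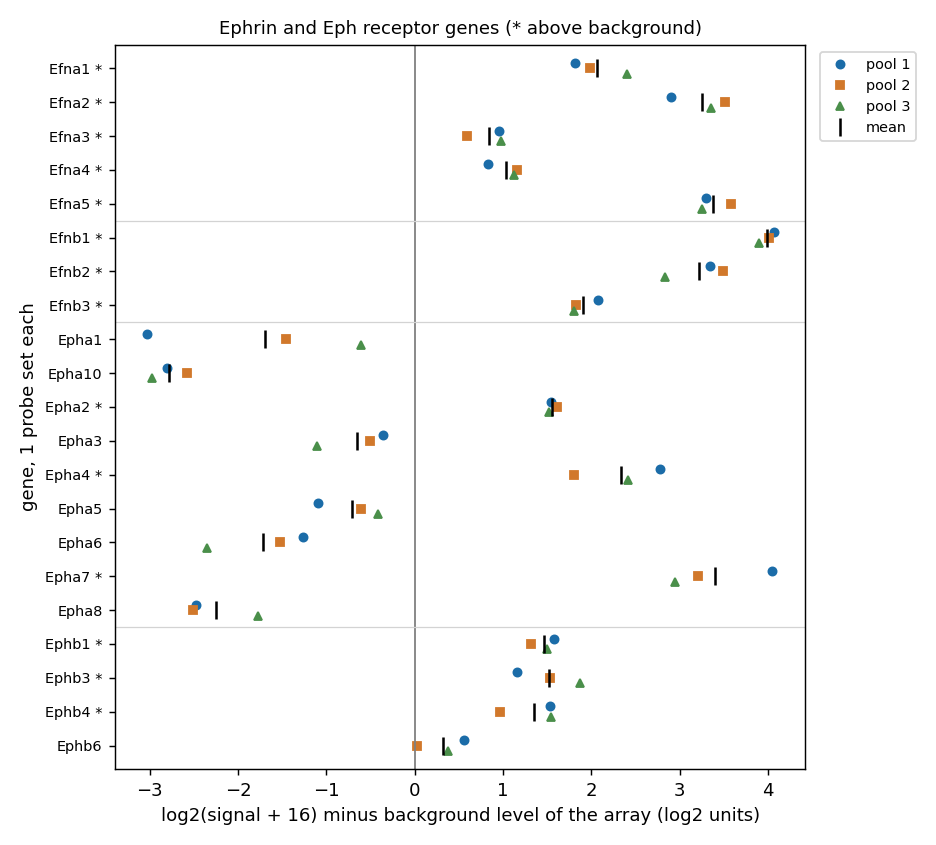
Ephrin and Eph receptor genes in the 3 pools, as log2(signal + 16) minus the background level of the array; points are pools, bars are means, and asterisks mark genes above background. The 8 ephrins all lay to the right of the line in every pool, while 6 of the 9 EphA genes lay to its left in every pool.

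Over the lists of partners as a whole, 48 of 67 genes were above background, against 54.4% of all named genes. The list held 11 genes of the netrin system, 11 other ligands and co-receptors, 13 Robo, 19 plexin and 13 Eph transducers. The median of the list, by the highest probe set of each gene, lay 2.42 log2 units over the background level, against 1.20 over all named genes. Most genes of the list have several probe sets, which favours a call and raises the highest probe set. Of the 18193 named genes 9183 have 1 probe set, and 37.1% of these were above background, against 84.5% of those with more than 3. The count, the median and the counts of the parts of the list were not matched for this. Among the other ligands and co-receptors 9 of 11 passed, including Dag1 (10929 ± 509), which encodes the Slit-binding dystroglycan, Gpc1 (3917 ± 1235) and Sdc1 (9167 ± 818), which encode heparan sulfate proteoglycans (SD, n = 3). L1cam and Cntn2, adhesion molecules best known from axons, did not pass (289 ± 46.0 and 259 ± 146), although L1cam did with background at its 90th percentile (adjusted p = 0.018, the lowest of 0.018 to 1.0 over the alternatives). Many transducers act in other pathways as well.

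Between pools, the 40 genes above background differed by a median of 0.50 log2 units from the lowest to the highest pool, against 0.44 over all 9892 genes above background. With 1 array per pool these differences have no test. In 5 of the 40 genes (12.5%) the highest pool was 2-fold or more over the lowest, against 6.87% of all genes above background. Epha4 (2.08-fold) and Epha7 (2.09-fold) were highest in pool 1, Sema3a (2.19-fold) in pool 2, and Plxnc1 (2.13-fold) and Sema4f (3.76-fold) in pool 3. The range of Sema4f is that of the probe set that did not itself pass, and on its passing probe set it was 1.49-fold. The second passing probe set of Epha7, with 1644, 1103 and 777, gave the same order of pools and the same 2.09-fold range. For Epha4 the other 3 passing probe sets were also highest in pool 1, with ranges of 1.38-fold to 1.56-fold. A second probe set of Sema3a, not above background, was likewise highest in pool 2 (20.6, 404 and 64.3). Without pool 1 none of the 40 genes had a 2-fold range, and without pool 2 or without pool 3 there were 3, a comparison added after the data were seen. The marker sums did not separate the pools in one direction. Pool 1 had the highest sum for stroma, pool 2 for cap mesenchyme, and pool 3 for early nephron and ureteric bud genes. Sums follow the brightest probe sets, and single markers did not all share the order of their sum. For cap mesenchyme, Itga8 was highest in pool 2 (19489, 27862 and 21064), but Six2 was lowest there (8734, 5727 and 9255). For stroma, Aldh1a2 was highest in pool 1 (15849, 9206 and 10478), but Foxd1 in pool 3 (7370, 7389 and 7938). The part of these markers in the ranges between pools was not tested. Neural markers were uneven, with Elavl4 at 3581 ± 221, Nefl at 952 ± 355 and Dbh at 427 ± 94.4 above background (SD, n = 3). Tubb3 (26.5 ± 27.5), Stmn2 (33.3 ± 16.2) and Th (114 ± 25.7) were under it in every pool. Prph (200 ± 63.7) and Sox10 (198 ± 67.3) lay near the level and did not pass.

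**Figure D5:**
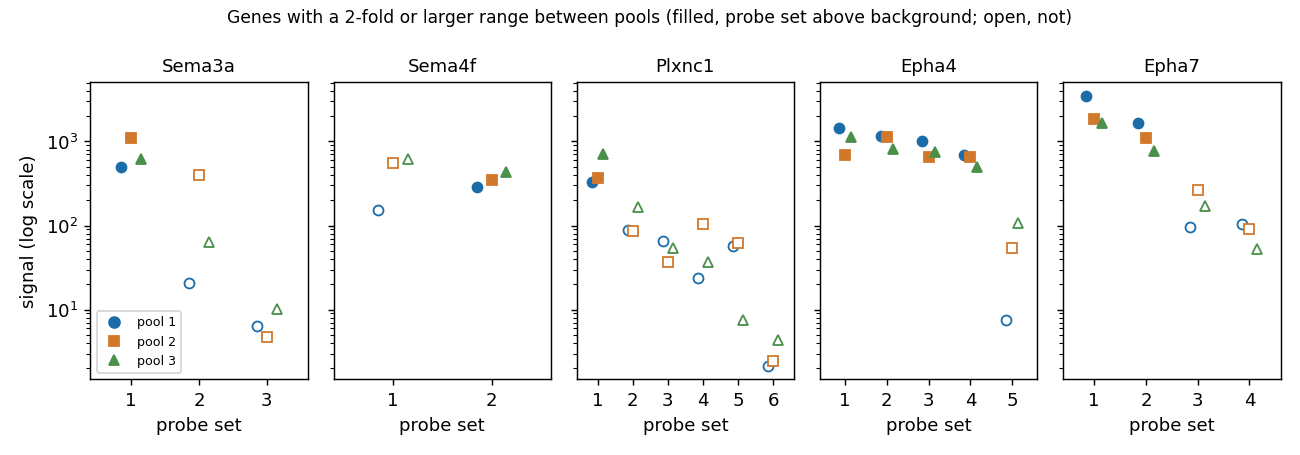
Signals (log axis) of all probe sets of the 5 genes above background whose pools differed 2-fold or more, in order of mean log2 signal; filled symbols are probe sets above background and open symbols are not. Both filled probe sets of Epha7 were highest in pool 1, at 3489 and 1644.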

How the data were processed

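Cap mesenchyme was measured on 3 mouse Affymetrix arrays, 1 per pool. The deposited values are linear intensity signals made by the authors with GCOS, per the submitters' processing notes; its version is not given in the sources used here. As tested on the values, each array had been scaled to a 2% trimmed mean of 1500, which removes differences in total signal. Gene symbols came from the platform's annotation table (34945 with 1 symbol, 932 with several, 9160 with none), and 64 controls were left out. All 67 genes matched RefSeq by Entrez identifier. From log2(signal + 16) the 95th percentile of 150 background probe sets of the same array was subtracted, and limma 3.58.1 (R 4.3.3) gave a one-sided test of whether the mean exceeded 0 (intercept-only model, eBayes with an intensity trend). Benjamini-Hochberg adjusted p-values over 45037 probe sets under 0.05 were called; 2 of the background probe sets passed. The pseudocount understates folds of weak signals. The test was tested on simulated data with known margins. The background probe sets kept their measured values there, so the choice of background level was not checked. Any member gene, and any gene of the partner and marker lists, could be named. The members followed from gene symbols alone, but the choice to describe these families, and the lists, was made with earlier results of these data known, so no set test was made. Depth is limited by the number of arrays. Alternatives are given in the closing section.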

Additional observations from a re-analysis of the deposited data

How the results depend on the processing

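Over 12 alternatives the member genes above background numbered 27 to 42 (main 40) and the partner genes 40 to 52 (main 48). Leaving out 1 pool gave 37 to 40 member genes, 56 to 60 member probe sets and 48 partner genes. The direction and the call of 24 member genes held under every alternative run, and 25 genes passed under none. Member probe sets above background numbered 39 at the 99th percentile of background, against 60. Member genes with a 2-fold range between pools numbered 0 to 3 when 1 pool was left out, against 5, which follows in part from comparing fewer arrays.

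At the 99th percentile of background, which raises the level by construction, Efna3 (-0.29 log2 units), Efna4 (-0.09), Plxna2 (-0.47), Plxnb3 (-0.04), Plxnc1 (-0.01), Sema4a (-0.37) and Sema4f (-0.22) lay under the level. With cross-matching probe sets left out, Plxnb3 (-0.59) and Sema4a (-0.98) did. When at least 50% of a gene's probe sets had to pass, 33 member genes did so, and the median probe set lay under the level for Plxnc1 (-1.69), Sema3a (-0.97), Sema4d (-2.18), Sema5a (-0.47) and Sema6d (-0.42). No paired analysis was possible because the series has a single group.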
